A study of Tachysurus vachellii and Tachysurus fulvidraco x Tachysurus vachelli and Tachysurus fulvidraco with 9 samples.

Results

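Csad encodes cysteine sulfinic acid decarboxylase, and GADL1 a related decarboxylase. The genes were picked out by symbol or by a description as cysteine sulfinic acid decarboxylase in a liver transcriptome of 57710 assembled genes, here called rows. That gave 3 rows: an abundant Csad row, a GADL1 row and a scarce CSAD row. They were singled out with the measured TPM (transcript abundance scaled for length and for the total of each library) of the lines known, so their own levels are given as a description, with no test. Poly(A) RNA was sequenced from the liver of juvenile catfish in 9 libraries, 3 for each line. The lines were the hybrid yellow catfish Huangyou-1, bred from P. fulvidraco females and P. vachelli males, its paternal species P. vachelli, and its maternal species P. fulvidraco. Spawners were injected with hormones, the eggs of all lines were hatched at the same water temperature, and the young were given Artemia and then compound feed. The age of the fish is not given, and the extraction protocol speaks of an adipose type although the tissue label is liver. Each line was held in aquaria of its own, so line and rearing cannot be told apart. Nothing in the labels tells whether a library is a single fish or a pool, so the spread between libraries may be technical.

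Taurine is made from cysteine in the vertebrate liver. Cysteine dioxygenase oxidizes cysteine to cysteine sulfinate, which cysteine sulfinic acid decarboxylase, using the vitamin B6 cofactor pyridoxal phosphate, turns into hypotaurine, and hypotaurine is then oxidized to taurine. The liver uses taurine to conjugate bile acids, and other cells keep it as an osmolyte. In mice, GADL1 acts on aspartate and cysteine sulfinate and feeds the making of beta-alanine and carnosine-type peptides in muscle and other organs.

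The libraries carried hepatocyte transcripts in large amounts. The 9 hepatocyte markers found of 10 summed to 38950 to 40856 TPM in hybrid liver, 36249 to 40712 TPM in P. vachelli liver and 39136 to 44719 TPM in P. fulvidraco. Markers of skeletal muscle, with 5 found of 9, summed to at most 21.0 TPM in any library. Those of kidney tubule (3 of 8) and fat (2 of 6) reached at most 28.7 and 27.4 TPM. Exocrine pancreas markers, from tissue that in many bony fishes lies within the liver, were plentiful. The 7 found of 11 summed to 5692 to 7468 TPM in hybrid liver, 1475 to 3060 TPM in P. vachelli liver and 2452 to 6271 TPM in P. fulvidraco. Vitellogenin rows took 5.08% and 1.88% of the TPM of P. fulvidraco 1 and 2. The highest share in the other libraries was 0.00549%. Hybrid 3 stood apart on the third principal component, with 6.63% of the variance, at -114, where hybrid 1 and 2 were at 48.1 and 42.5. TPM keep no read depth, which is therefore unknown.

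All 3 rows were higher in every hybrid library than in any parental library. The abundant Csad row stood at 273.35, 502.56 and 469.45 TPM in hybrid 1, 2 and 3. It stood at 61.55, 43.48 and 65.74 TPM in the P. vachelli libraries and at 32.99, 59.29 and 34.77 TPM in the P. fulvidraco libraries. The lowest hybrid library was 4.16 times the highest parental library, while the ranges of the parental species overlapped. Group means were 415 ± 124 TPM for hybrid fish, 56.9 ± 11.8 TPM in P. vachelli liver and 42.4 ± 14.7 TPM in P. fulvidraco (SD, n = 3 each). The hybrid mean was 7.29 times that of P. vachelli and 9.80 times that of P. fulvidraco. On the log2(TPM + 1) scale, used for every log2 difference here, the hybrid was 2.82 above P. vachelli and 3.26 above P. fulvidraco.

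The GADL1 row was also highest in the hybrid, at a lower level than the abundant Csad row. It stood at 92.84, 131.22 and 144.14 TPM in the hybrid libraries. In P. vachelli it was at 20.4, 11.27 and 17.21 TPM, and in P. fulvidraco at 16.18, 22 and 12.92 TPM. Again the hybrid libraries lay above all others, by at least 4.22 times, and the parental species overlapped. Means were 123 ± 26.7 TPM in hybrid liver, 16.3 ± 4.63 TPM in P. vachelli liver and 17.0 ± 4.6 TPM in P. fulvidraco, with log2 differences of the hybrid of 2.85 and 2.78. The scarce CSAD row was at 3.33, 4.66 and 6.7 TPM in hybrid liver, at 1.28, 0.88 and 2.13 TPM in P. vachelli liver, and at 2.4 and 0.09 TPM in P. fulvidraco 1 and 2. It was listed at 0 in P. fulvidraco 3. Here the hybrid libraries also lay above the parental ones, but the lowest hybrid value was only 1.39 times the highest parental value.

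**Figure D1:**
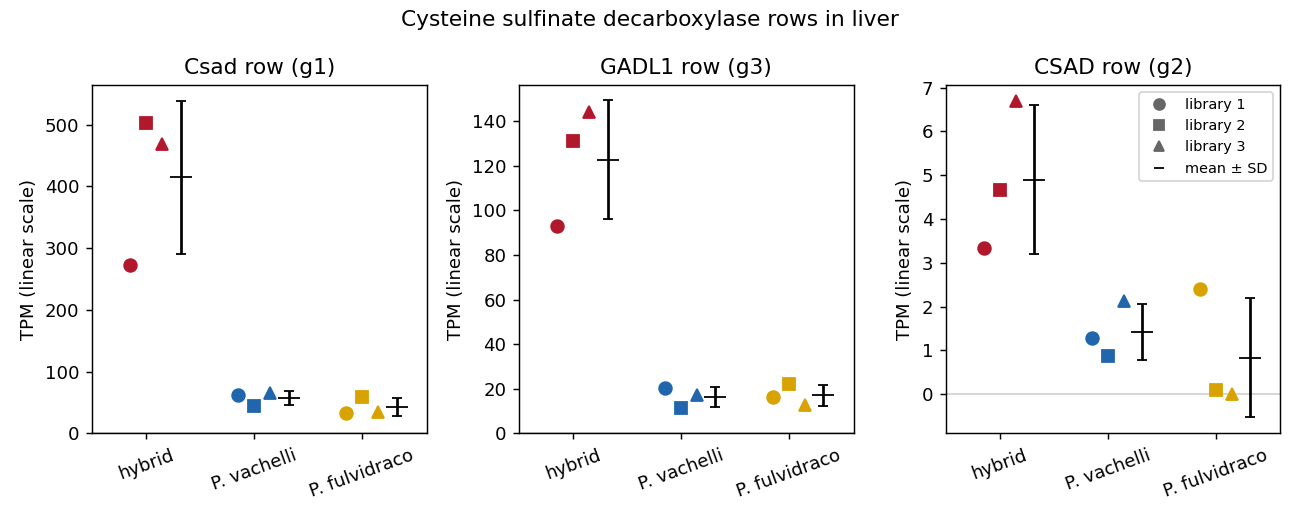
TPM of the 3 decarboxylase rows in each library (symbols), on linear axes that differ between panels, with the mean ± SD of 3 libraries beside each group; g1, g3 and g2 end the rows' assembly identifiers. In each panel the hybrid libraries lie above every parental library, and hybrid 1 is the lowest of them.

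Summed over the 3 rows, the decarboxylase signal was 542.75 ± 150.3 TPM in hybrid liver, 74.6 ± 16.5 TPM in P. vachelli liver and 60.2 ± 18.4 TPM in P. fulvidraco. The sum was 369.52, 638.44 and 620.29 TPM in hybrid 1, 2 and 3. A hybrid at the mean of its parental species would stand at 67.4 TPM, and hybrid 1, 2 and 3 stood at 5.48, 9.47 and 9.20 times that level. Hybrid 1 was the lowest hybrid library in all 3 rows. Without P. fulvidraco 1 and 2, the vitellogenin-rich libraries, the sum in the hybrid was 3.44 above P. fulvidraco on the log2 scale, against 3.15 with them. Leaving out hybrid 3 as well, a setting chosen after seeing the data, gave 3.32 against P. fulvidraco and 2.71 against P. vachelli. Between the parental species the difference was small, at 0.32 (P. vachelli minus P. fulvidraco).

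The exocrine pancreas sum was higher in every hybrid library than in any P. vachelli library and overlapped between the hybrid and P. fulvidraco. Hybrid 1 had the largest pancreas sum and, among hybrid libraries, the smallest decarboxylase sum. Of the 7 tested pancreas markers, 5 were higher in the hybrid than in P. vachelli, and 1 than in P. fulvidraco. Of all tested symbols, 13.7% and 10.6% were called higher in these comparisons. Erythrocyte markers, with 4 found of 5, summed to 7131 to 9341 TPM in hybrid liver, 6266 to 9242 TPM in P. vachelli liver and 3584 to 5352 TPM in P. fulvidraco. In this sum, mostly HBA and HBB, the hybrid overlapped with P. vachelli but not with P. fulvidraco. Taken singly, ALAS2 and SLC4A1 overlapped between the hybrid and P. fulvidraco. Of the 4 tested, 2 were called higher in the hybrid than in P. vachelli and 2 than in P. fulvidraco, and 0 lower. The shares of all symbols called higher are those just given, and nothing is read from so few markers. Brain markers, with 3 found of 7, were low but summed higher in every hybrid library than in any parental one. Their sums were 2.40 to 24.6 TPM in the hybrid libraries, 0.97 to 1.16 TPM in P. vachelli and 1.73 to 1.88 TPM in P. fulvidraco. Taken singly, GFAP and MBP overlapped between the hybrid and both parental species. Only 1 brain marker was tested, and it was not called in the hybrid against either species. Most of the 24.6 TPM was SNAP25, a synaptic protein, at 8.22 and 23.8 TPM in hybrid 1 and 2. SNAP25 was listed at 0 in hybrid 3, where the decarboxylase sum was 620.29 TPM, and was at most 0.19 TPM in the parental libraries. The part of these tissues in the decarboxylase result was not tested. In bulk liver, more cells of a type and more RNA per cell cannot be told apart.

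The file does not show that the 3 rows are separate genes. All of them come from a single cluster of the assembly, which holds 5 rows, and the GADL1 row carries the same description as the abundant Csad row, cysteine sulfinic acid decarboxylase isoform X1 of channel catfish. Its symbol and its description thus disagree, and the row is called GADL1 below only as its symbol. In a RefSeq gene table of P. vachelli (HZAU_Pvac_v1), 1 of the 2 symbols was matched, csad. The rows may share reads, and how the quantification divided them is not given in the sources used here. The TPM of the GADL1 row, divided by that of the separate abundant Csad row, came to 26.1% to 34.0% in the hybrid, 25.9% to 33.1% in P. vachelli and 37.1% to 49.0% in P. fulvidraco. That ratio overlapped between the hybrid and P. vachelli, whereas every P. fulvidraco library was higher. The 2 undescribed rows of the cluster were low. In both, the mean was highest in the hybrid and lowest in P. vachelli. The first stood at 0.67, 3.84 and 2.3 TPM in hybrid liver and at 0.65, 1.31 and 0.87 TPM in P. fulvidraco, while all P. vachelli libraries list it at 0. The second averaged 3.76 ± 2.89 TPM in hybrid liver, 0.193 ± 0.181 TPM in P. vachelli liver and 2.94 ± 1.62 TPM in P. fulvidraco, and the hybrid overlapped with P. fulvidraco.

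Among the 51225 rows that reached 1 TPM in 3 or more libraries, 1.91% had every hybrid library above every parental library, and all 3 decarboxylase rows passed that filter and were among them. Since the genes were picked with these levels known, nothing is read from that count or from the ranks that follow. Rows were ranked by the smaller of the hybrid's log2 differences from its parental species. The abundant Csad row was 19th, the GADL1 row 23rd and the scarce CSAD row 347th among the 51225 rows. Among the 20885 of them with a description, the same rows were 8th, 12th and 131st. For the scarce CSAD row the smaller difference was 1.27. With rows of the same symbol summed, CSAD and GADL1 were 4th and 5th of 10815 symbols.

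The gene of the preceding step had another order of lines. CDO1, cysteine dioxygenase, which makes the substrate of Csad, stood at 481.6, 635.79 and 418.11 TPM in hybrid liver, at 624.72, 746.05 and 750.66 TPM in P. vachelli liver, and at 221.65, 292.57 and 429.11 TPM in P. fulvidraco. The hybrid libraries overlapped with both parental groups. P. vachelli was above P. fulvidraco by a log2 difference of 1.21 ± 0.23 (SE, limma adjusted p = 0.00238), and by 0.71 without P. fulvidraco 1 and 2 (adjusted p = 0.0483). The hybrid differed from P. vachelli by -0.48 ± 0.23 (adjusted p = 0.152), which did not pass the threshold of 0.05. It was above P. fulvidraco by 0.73 ± 0.23, just past the threshold (adjusted p = 0.0493), a call lost in 13 of 17 alternatives (adjusted p of 0.0105 to 0.559 over all of them).

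TPM are scaled by length, so levels of different genes can be set side by side, as far as the assembled rows are complete. The summed decarboxylase rows were 0.767, 1.004 and 1.48 times the CDO1 level in hybrid 1, 2 and 3. The same ratio was 0.133, 0.0746 and 0.113 in the P. vachelli libraries and 0.233, 0.278 and 0.111 in the P. fulvidraco libraries. The summed TPM was thus below that of the dioxygenase in every parental library, and ranged from below to above it in the hybrid libraries. The parental species overlapped in this ratio. Summing takes the 3 rows as separate transcripts, which is not shown, and the rows may share reads. The CDO1 level is itself the sum of 2 rows. The abundant Csad row alone, at 273.35, 502.56 and 469.45 TPM in hybrid 1, 2 and 3, was below CDO1 in hybrid 1 and 2. It was above CDO1 in hybrid 3, where CDO1 was at 418.11 TPM.

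**Figure D2:**
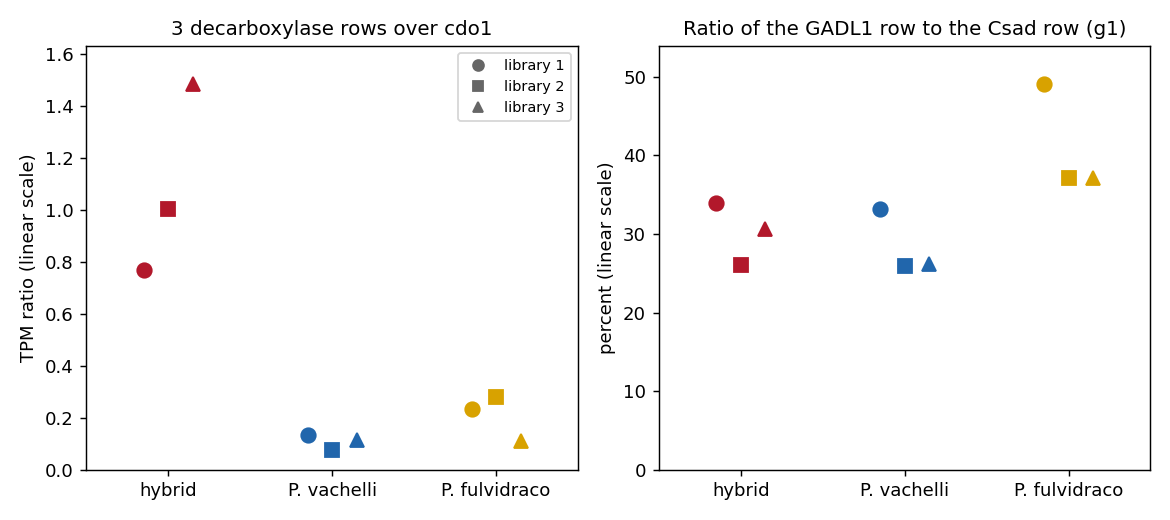
Left, TPM of the 3 decarboxylase rows summed, divided by the TPM of cdo1 in the same library; right, the ratio of the GADL1 row to the abundant Csad row (g1), in percent; both axes are linear and start at 0. The hybrid libraries lie at 0.767 to 1.48 on the left, above all parental libraries at 0.0746 to 0.278, while on the right the hybrid and P. vachelli overlap and P. fulvidraco is higher.

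Genes around the decarboxylase were counted in 7 lists of 63 symbols, which leave out Csad and GADL1 and which cover the making, transport and use of taurine, its precursors, beta-alanine and related enzymes. Rows of a symbol were summed, because the assembly can keep the alleles of each species apart, and all 48 symbols that were found were tested. Against P. vachelli, 9 of 48 were higher in the hybrid and 9 lower, that is 18.8% each way, where 13.7% of all 10815 tested symbols were higher and 16.9% lower. Against P. fulvidraco, 5 were higher and 5 lower, or 10.4% each way, where 10.6% of all symbols were higher and 14.1% lower. Between the species, 14 were higher and 13 lower in P. vachelli, or 29.2% and 27.1%, where 23.9% and 24.7% of all symbols were. Nothing particular to the lists is read from these shares. Median log2 differences of the 48 were -0.10, 0.01 and 0.05 in these comparisons, and -0.05, -0.05 and -0.01 over all symbols. Without P. fulvidraco 1 and 2, calls against P. fulvidraco numbered 5 in place of 10.

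By limma, 0 of the 48 pathway genes were called above both parental species and 0 below both. Over all symbols, 0.971% were called above both and 2.01% below both. At an unadjusted p under 0.05 in both comparisons, SLC6A13 and SLC10A1 were above, and SUOX was below. The share of all symbols at that unadjusted threshold was not taken, so nothing is read from these genes. SLC6A13, from the taurine transport list, was at 22.7 ± 5.50 TPM in hybrid liver. It was at 16.2 ± 1.35 TPM in P. vachelli liver and 16.8 ± 1.66 TPM in P. fulvidraco (adjusted p = 0.0703 and 0.111). SLC10A1, which takes bile acids up into hepatocytes, stood at 3.26 ± 1.04 TPM in hybrid liver, 1.38 ± 0.893 TPM in P. vachelli liver and 1.22 ± 0.572 TPM in P. fulvidraco (adjusted p = 0.0732 and 0.0701).

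**Figure D3:**
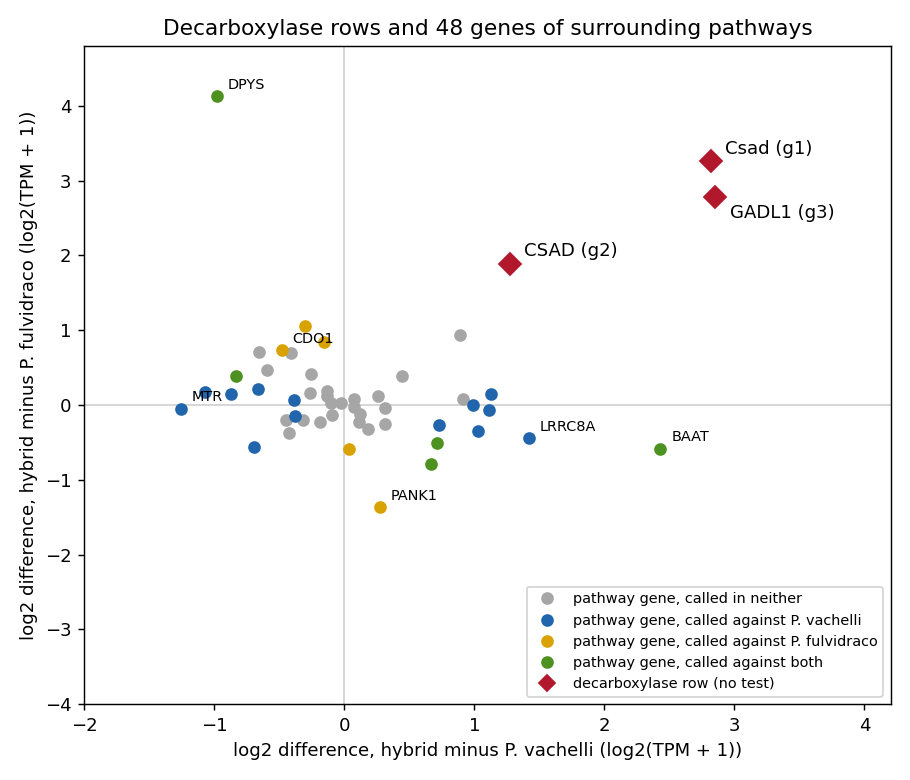
Log2 differences of the hybrid from P. vachelli (horizontal) and from P. fulvidraco (vertical) on the log2(TPM + 1) scale, for the 3 decarboxylase rows (diamonds) and 48 pathway genes (circles, coloured by limma call). The decarboxylase rows, picked with their levels known, lie in the upper right, at 1.27 to 2.85 across and 1.89 to 3.26 up. No pathway gene was called higher in both comparisons, where 0.971% of all symbols were, so nothing is read from the contrast.

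Of the 7 listed genes of taurine synthesis, 4 were found. GOT1, the cytosolic aspartate aminotransferase that diverts cysteine sulfinate from taurine synthesis, was lower in hybrid fish than in P. vachelli, at 10.8 ± 1.46 against 14.3 ± 0.217 TPM (adjusted p = 0.0472), a call lost in 11 of 17 alternatives (0.0305 to 0.139 over all). GOT1 was at 12.1 ± 1.39 TPM in P. fulvidraco and was not called in the hybrid against it. Its mitochondrial form GOT2 was at 181 ± 16.1 TPM in hybrid liver, 150.3 ± 8.31 TPM in P. vachelli liver and 167 ± 18.4 TPM in P. fulvidraco and was not called. ADO, which makes hypotaurine from cysteamine, was low in all lines, at 6.93 ± 0.8, 7.58 ± 1.56 and 6.79 ± 0.607 TPM in the hybrid, P. vachelli and P. fulvidraco, and was not called.

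In the methionine cycle and cysteine supply, the genes of S-adenosylmethionine synthesis were called in the hybrid against P. vachelli. Of 7 tested genes, 1 was higher and 4 lower in hybrid liver than in P. vachelli. Against P. fulvidraco 0 were called in either direction, and 0 had an unadjusted p under 0.05. Shares of all tested symbols were 13.7% higher and 16.9% lower against P. vachelli, and 10.6% and 14.1% against P. fulvidraco. With 7 genes, nothing is read from the counts. The difference between these comparisons was not tested, and they share the hybrid libraries. MAT1A, the liver form of methionine adenosyltransferase, stood at 98.4 ± 10.2 TPM in hybrid liver and 181 ± 18.7 TPM in P. vachelli liver (log2 difference -0.87 ± 0.10), with 88.4 ± 1.84 TPM in P. fulvidraco. Glycine methyltransferase GNMT, which uses up S-adenosylmethionine, was at 72.5 ± 6.54 TPM in hybrid liver and 115 ± 8.47 TPM in P. vachelli liver (-0.67 ± 0.16), a call lost without hybrid 1 (adjusted p = 0.0546) and without P. vachelli 2 (0.0533). The regulatory subunit gene MAT2B went the other way, at 14.03 ± 1.0 TPM in hybrid liver and 6.59 ± 0.678 TPM in P. vachelli liver (0.99 ± 0.13), with 14.1 ± 2.08 TPM in P. fulvidraco. CTH, which releases cysteine from cystathionine, was at 238 ± 12.2 TPM in hybrid liver, 193 ± 26.9 TPM in P. vachelli liver and 286 ± 45.1 TPM in P. fulvidraco. CTH was lower in P. vachelli than in P. fulvidraco (-0.56 ± 0.14), and was not called in the hybrid against either species.

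Other fates of cysteine were covered by 6 tested genes. ETHE1, the mitochondrial persulfide dioxygenase, was at 53.1 ± 3.97 TPM in P. fulvidraco and was not called in the hybrid against it. It was higher in the hybrid than in P. vachelli, at 44.3 ± 8.79 against 26.1 ± 1.99 TPM (0.73 ± 0.14). SUOX, sulfite oxidase, was lower, at 5.85 ± 1.29 against 10.0 ± 1.87 TPM (-0.69 ± 0.18), and stood at 9.08 ± 1.46 TPM in P. fulvidraco (adjusted p = 0.0531). The SUOX call was lost without hybrid 1 or 3 or P. vachelli 2 or 3 (adjusted p of 0.0144 to 0.0788 over 17 alternatives). GCLC, the catalytic subunit of the enzyme that opens glutathione synthesis from cysteine, was near the same level in all lines, at 3.32 ± 0.564, 3.58 ± 0.0794 and 3.71 ± 0.358 TPM in the hybrid, P. vachelli and P. fulvidraco.

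Among carriers and channels, SLC6A6, the taurine transporter, stood at 6.71 ± 3.46 TPM in hybrid liver, 10.3 ± 4.08 TPM in P. vachelli liver and 4.21 ± 0.383 TPM in P. fulvidraco. It was called only between the species (1.07 ± 0.33 in P. vachelli minus P. fulvidraco, adjusted p = 0.0244, and 0.70 with a pseudocount of 5). That call was lost in 5 of 17 alternatives, among them the use of its most abundant row alone (0.0636). A second row of the symbol carries the description of a betaine transporter. SLC16A6, which exports taurine in mammals, was slightly lower in hybrid liver than in P. vachelli liver, at 24.8 ± 1.08 against 32.7 ± 1.14 TPM (-0.39 ± 0.08), but not in its most abundant row alone (adjusted p = 0.284). SLC16A6 was at 23.7 ± 1.31 TPM in P. fulvidraco and was not called in the hybrid against it. LRRC8A, the required subunit of the volume-regulated anion channel that lets taurine out of swollen cells, was higher in the hybrid than in P. vachelli, at 11.5 ± 2.56 against 3.64 ± 0.482 TPM (1.42 ± 0.19, and 0.93 with a pseudocount of 5). P. fulvidraco was at 16.0 ± 3.14 TPM, and the hybrid's difference from it, -0.44 ± 0.19, was not called (adjusted p = 0.113). The most abundant LRRC8A row alone gave 0.09 against P. vachelli (adjusted p = 0.688), and 3 of its 5 rows were listed at 0 in every P. vachelli library.

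Of 6 tested genes that use taurine or move bile salts, 4 were higher and 0 lower in hybrid liver than in P. vachelli. Against P. fulvidraco, 0 were higher and 3 lower. At an unadjusted p under 0.05 these counts were 5 and 0, and 2 and 3, and the shares of all symbols at that threshold were not taken. Of all tested symbols, 13.7% were called higher and 16.9% lower against P. vachelli, and 10.6% and 14.1% against P. fulvidraco. With 6 genes, nothing is read from the counts. BAAT, which joins taurine or glycine to bile acids, stood at 695.33, 543.52 and 574.73 TPM in the hybrid libraries. It stood at 121.85, 100.65 and 110.52 TPM in P. vachelli liver and at 911.18, 916.6 and 874.95 TPM in P. fulvidraco. The 3 groups did not overlap, and the hybrid lay between the species, 2.43 ± 0.11 above P. vachelli and -0.58 ± 0.11 from P. fulvidraco (adjusted p = 1.55e-06 and 0.00541). With the most abundant of its rows alone, the difference from P. vachelli was 3.79. The BAAT call against P. fulvidraco was lost without P. fulvidraco 1 and 2 (adjusted p = 0.0865). ABCB11, the bile salt export pump, was at 217 ± 49.7 TPM in hybrid liver, 98.4 ± 6.73 TPM in P. vachelli liver and 226 ± 45.5 TPM in P. fulvidraco, 1.11 ± 0.18 higher in the hybrid than in P. vachelli. PTER, which in mice hydrolyses N-acetyltaurine, also lay between the species, at 26.3 ± 2.11, 15.6 ± 1.02 and 37.7 ± 2.87 TPM in the hybrid, P. vachelli and P. fulvidraco. Without P. fulvidraco 1 and 2 the PTER call against P. fulvidraco was lost (adjusted p = 0.0782).

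The beta-alanine list covers the product that GADL1 serves in mice. It had 1 higher and 2 lower of 12 against P. vachelli and 3 higher and 2 lower against P. fulvidraco. For all tested symbols the shares were 13.7% and 16.9%, and 10.6% and 14.1%. Nothing is read from the counts of so short a list. Dihydropyrimidinase DPYS, in the breakdown of uracil to beta-alanine, was at 172.5 ± 43.9 TPM in hybrid liver, 334 ± 7.54 TPM in P. vachelli liver and 8.69 ± 0.665 TPM in P. fulvidraco. The hybrid was thus 4.13 ± 0.16 above P. fulvidraco and -0.98 ± 0.16 from P. vachelli. UPB1, the following enzyme, kept the same order, at 142 ± 5.01, 254 ± 24.5 and 108 ± 3.60 TPM in the hybrid, P. vachelli and P. fulvidraco, and its call in the hybrid against P. fulvidraco was lost without P. fulvidraco 1 and 2 (adjusted p = 0.106). DPYD, the first enzyme of that route, was higher in the hybrid than in P. vachelli (1.03 ± 0.13). Pantothenate kinase PANK1, which opens coenzyme A synthesis, was lower in the hybrid than in P. fulvidraco, at 26.4 ± 6.60 against 68.4 ± 3.34 TPM (-1.36 ± 0.15). PANK1 was at 21.4 ± 1.56 TPM in P. vachelli and was not called in the hybrid against it.

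The related decarboxylases that were found did not come near the level of Csad. GAD2, HDC and ODC1 were listed too, but no row carried these symbols. Glutamate decarboxylase GAD1, of the same enzyme family, was at 4.2 ± 1.64 TPM in hybrid liver, 1.90 ± 1.39 TPM in P. vachelli liver and 3.90 ± 1.35 TPM in P. fulvidraco and was not called. Aromatic amino acid decarboxylase DDC was higher in the hybrid than in P. vachelli, at 2.67 ± 0.856 against 0.660 ± 0.202 TPM (1.13 ± 0.19), and by 1.86 and 0.43 with pseudocounts of 0.1 and 5. DDC was at 2.25 ± 0.233 TPM in P. fulvidraco and was not called in the hybrid against it.

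The symbols whose pattern over the 9 libraries was most like that of CSAD were found by the root-mean-square difference between mean-centred log2(TPM + 1) profiles, among 10533 symbols of at least 1 TPM on average. The closest was GADL1, at 0.28, whose row comes from the same assembly cluster as the CSAD rows and may share reads with them. Symbols were chosen here for being alike, so a high level in the hybrid follows from the choice. Among the 5 closest were also SLC17A7 at 0.51, the histone H4-VIII at 0.60 and SLC17A6B at 0.69. For GADL1 the 5 closest included CSAD, H4-VIII at 0.50, SLC17A7 at 0.57 and the MHC class I gene H2-Q8 at 0.61. H4-VIII, described as a histone H4 of Equus przewalskii, was low, at 2.33, 3.36 and 7.57 TPM in hybrid 1, 2 and 3. It was at 1.14 TPM in P. vachelli 1, and the other parental libraries list it at 0. SLC17A7 and SLC17A6B carry the same description, vesicular glutamate transporter 1-like, and were also low, with means of 5.91 and 3.16 TPM in hybrid liver. SLC17A7 stood at 3.85, 8.02 and 5.87 TPM in hybrid 1, 2 and 3. Its P. vachelli libraries were at 1.36, 1.13 and 0.87 TPM, and P. fulvidraco 2 was at 0.57 TPM, while P. fulvidraco 1 and 3 list it at 0. The parental species did not overlap in SLC17A7.

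**Figure D4:**
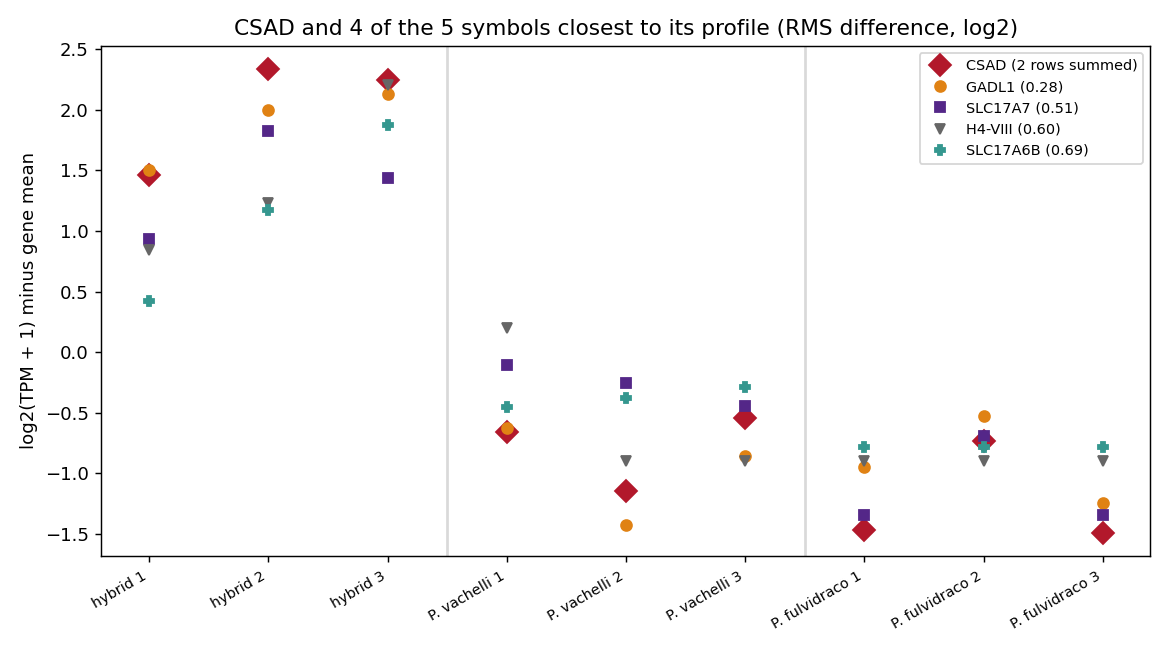
Log2(TPM + 1) minus the gene's own mean in each of the 9 libraries, for CSAD (2 rows summed) and 4 of the 5 symbols closest to it, with the root-mean-square difference from CSAD in the legend. Each of the 5 profiles is higher in every hybrid library than in any parental library, which follows from choosing symbols for their likeness to CSAD. GADL1, at 0.28, lies closest, and its row may share reads with the CSAD rows.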

How the data were processed

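Per the file headers, the authors deposited a table of TPM for each assembled gene in each library. The columns sum to about 1000000. The submitters' processing notes name cutadapt and FastQC. Identifiers have the form that Trinity gives. The sources used here do not give the quantifier, the build or the origin of the symbols. Columns were matched to samples by title, with 0 left over.

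Members were rows named Csad or GADL1, in any case, or described as cysteine sulfinic acid decarboxylase. Members, gene lists and tests were chosen with earlier results of these data known. For pathway genes, rows of a symbol were summed, also over copies marked by a letter or number. Symbols with at least 1 TPM in at least 3 libraries were tested with limma 3.58.1 (R 4.3.3), with an intensity trend, on log2(TPM + 1), in a fit of 9 libraries with 6 residual degrees of freedom, two-sided, Benjamini-Hochberg adjusted over 10815 symbols at 0.05. A gene under the threshold is called. ± after TPM is the SD over 3 libraries, and after a log2 difference the standard error. The log2(TPM + 1) scale understates changes of low genes. Any list gene could be named, and the 5 symbols closest to each member. The highest Pearson correlation between libraries of a group, across rows, was 0.937. Other settings were median-ratio and quantile scaling, other pseudocounts and filters, the most abundant row of a symbol, no trend, only the groups compared, a replicate block and libraries left out. A few named genes are not reported here.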

Additional observations from a re-analysis of the deposited data

How the results depend on the processing

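The number of pathway genes called stayed within 1.5 times its main value in every alternative but the one without P. fulvidraco 1 and 2, where 5 were called in the hybrid against P. fulvidraco in place of 10, with a single P. fulvidraco library assumed to vary like the other groups. Over all symbols, calls against P. fulvidraco numbered 2664, and 1753 without hybrid 2, 1679 without P. fulvidraco 2 and 977 without P. fulvidraco 1 and 2. Leaving out each library gave 13 to 19 calls against P. vachelli, 8 to 12 against P. fulvidraco and 25 to 29 between the species. The labels give same-numbered libraries nothing in common but the number. The correlation of their deviations was -0.0682 to 0.0553 over 9 pairs, which cannot show whether they shared any handling. The replicate block gave 18, 7 and 29 calls in place of 18, 10 and 27. Of 44 calls of named pathway genes, 0 changed direction in any alternative. The largest number lost was 8, with the most abundant row standing for its symbol. For the 3 decarboxylase rows summed, leaving out each library gave log2 differences of 2.63 to 3.08 against P. vachelli, 3.00 to 3.40 against P. fulvidraco and 0.18 to 0.55 between the species. For the Csad rows summed the ranges were 2.62 to 3.08, 3.09 to 3.52 and 0.32 to 0.70, and for the GADL1 row 2.62 to 3.04, 2.61 to 2.98 and -0.24 to 0.16, so the sign of the GADL1 difference between the species turned with the library left out. The depth of the libraries is unknown, which limits what can be said of the scarce CSAD row.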

Other observations

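The genes beside csad on its chromosome were looked up in RefSeq's P. vachelli gene table (HZAU_Pvac_v1), 5 on each side, after the levels of Csad had been seen. Symbols were matched whole, ignoring case, so a row named without the letter that marks a gene copy would be missed. Only 3 of the 10 had a tested symbol by that match, and 0 of them were called in the hybrid against P. fulvidraco. In that comparison 10.6% of all tested symbols were called higher and 14.1% lower. Against P. vachelli 1 of the 3 was higher and 1 lower, where 13.7% and 16.9% of all tested symbols were. Nothing is read from 3 genes in either comparison. COPZ1, a coat protein subunit of transport vesicles, stood at 54.5 ± 7.96, 89.2 ± 16.7 and 64.4 ± 12.6 TPM in the hybrid, P. vachelli and P. fulvidraco, and was lower in hybrid fish than in P. vachelli by limma (log2 difference -0.69 ± 0.18, adjusted p = 0.0187). CBX5, the heterochromatin protein, stood at 2.72 ± 0.546, 1.42 ± 0.303 and 4.08 ± 0.326 TPM in the hybrid, P. vachelli and P. fulvidraco, higher in hybrid fish than in P. vachelli (0.62 ± 0.16, adjusted p = 0.0165). By limma, CBX5 was also lower in P. vachelli than in P. fulvidraco (-1.08 ± 0.16, adjusted p = 0.00047). SPRYD3 stood at 1.61 ± 0.209, 1.87 ± 0.329 and 1.56 ± 0.432 TPM in the hybrid, P. vachelli and P. fulvidraco and was not called.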
